A study of Homo sapiens with 13 samples.

Results

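The regions described here are the 300 clusters with the longest H3K27ac in wild-type (WT) H1 human embryonic stem cells, out of 14274 clusters in all. H1 (WA01) is an established human embryonic stem cell line. Peaks of the WT H3K27ac list that lay up to 12500 bp apart were merged, and the merged clusters were ranked by the summed length of their peaks. KO cells were H1 cells of the line labelled 1-10, a homozygous knockout of ZNF263, a C2H2 zinc finger transcription factor, made with Cas9. FLAG ChIP used the same KO cells with ectopic expression of ZNF263-FLAG, and WT cells were H1 cells with no deletion. Peak lists of H3K27ac, H3K4me3 and H3K27me3 in KO and WT cells and the FLAG list were used, each from 1 library. KO is 1 line, so the deletion and other properties of that line cannot be told apart, and with 1 library in each arm no test between genotypes was possible. Libraries made from WT cells with an antibody to endogenous ZNF263 also have the FLAG list named in their labels, and no source used here says if they contributed to it. Coordinates are hg19, counted from 1.

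Super-enhancers are groups of neighbouring enhancers that carry dense H3K27ac, a histone mark placed by the acetyltransferases p300 and CBP at active enhancers and promoters. They are known for lying near genes that set cell identity, which in embryonic stem cells are the genes of the pluripotency network. They are usually defined by merging nearby enhancers and ranking them by ChIP signal, often after peaks at gene starts have been taken out. H3K4me3, a mark of gene starts, shows where a cluster holds promoters. H3K27me3 is the mark of Polycomb repression. Here the ranking used peak length and kept promoter peaks, so the clusters are super-enhancer-like by construction only. No gene was assigned to a cluster, because no hg19 annotation was used here, and pluripotency markers were therefore not checked.

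The 300 clusters held 1060 of the 17537 WT H3K27ac peaks (6.04%) and 3.93 of the 40.6 Mb of WT H3K27ac (9.68%). Summed length, the value that chose them, ran from 9372 to 57962 bp with a median of 12079 bp. The last cluster inside the rank limit, at chromosome 1, 27357116 to 27387446, had 9372 bp, and the first outside, at chromosome 6, 32143002 to 32165094, had 9368 bp. The limit thus falls on a smooth slope, with no gap in length between members and the clusters after them. Spans from first to last base ran from 9563 to 99036 bp, with a median of 22711.5 bp, and H3K27ac peaks covered 53.0% of the total span of 7.40 Mb.

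**Figure D1:**
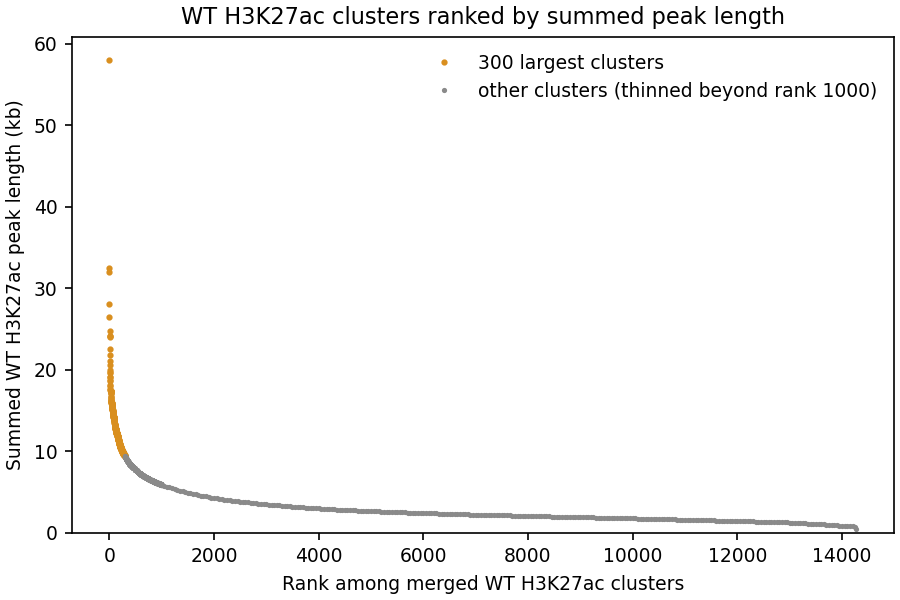
Summed WT H3K27ac peak length (y axis, kb) of merged clusters against their rank (x axis), with the 300 largest in orange and the others in grey. The largest cluster reaches 58.0 kb, and the curve passes rank 300 at 9.37 kb with no break.

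Most of these clusters were groups of a few peaks. Of the 300, 92 held 3 peaks, 84 held 4, 58 held 2 and 56 held 5 or more, up to 10. Only 10 were made of 1 wide peak, whereas 83.3% of all 14274 clusters were. The widest peak made up a median of 44.4% of a cluster's H3K27ac, so most length came from several peaks. The 760 gaps between neighbouring peaks had a median of 3855.5 bp. Members lay on all 22 autosomes, and 1 on an unplaced sequence, with 36 on chromosome 1, 28 on chromosome 6, 22 on chromosome 19, 19 on each of chromosomes 12 and 17, and 1 on X. As a share of all clusters on the chromosome, they made up 3.79% (95% Wilson interval 2.18 to 6.499) on chromosome 20, 3.62% (2.41 to 5.43) on chromosome 19, 3.21% (2.23 to 4.60) on chromosome 6 and 0.221% (0.0391 to 1.24) on X, against 2.10% over all. All intervals on shares here are Wilson intervals that cover the counting of peaks or clusters only.

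The largest cluster stood apart from the rest in length. It lay at chromosome 6, 26154849 to 26253884, spanned 99.0 kb and carried 53.5 kb of H3K27ac in KO cells and 58.0 kb in WT cells. It held 8 peaks in KO and 9 in WT, and the only WT peak with no KO peak was at 26239500 to 26242465. H3K4me3 was also missing there in KO cells, where the WT peak at 26239930 to 26242111 had a score of 885.91, so both marks were without a KO peak at the same place. H3K4me3 otherwise ran along the cluster, with 10 peaks in KO and 11 in WT. A lone, weak FLAG peak (score 71.6) lay near its right end. Another pair of the 10 largest clusters lay close by on the same chromosome. The cluster at 27773620 to 27808204 carried 32.1 kb in KO and 31.9 kb in WT, and the one at 27831481 to 27871541 carried 21.2 kb in KO and 24.03 kb in WT. As background, chromosome 6 is home to most replication-dependent histone genes, 55 of 74 in a RefSeq table of the GRCh38.p14 build, but that table cannot place genes in these hg19 clusters.

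The other 7 of the 10 largest lay on chromosomes 14, 17, 9, 8 and 3. Near-equal lengths were seen at chromosome 14, 21966506 to 22027313, with 31.4 kb in KO and 32.5 kb in WT, and at chromosome 8, 128805688 to 128846582, with 26.4 kb in KO and 24.8 kb in WT. At the chromosome 8 cluster every WT peak had a KO peak, and KO cells had 7 peaks against 6. Shorter H3K27ac in KO was seen at all 3 chromosome 17 clusters. The first, at 8056523 to 8131225, carried 20.2 kb in KO and 28.02 kb in WT, and 3 of its 10 WT peaks had no KO peak. The second, at 47067141 to 47113977, carried 19.1 kb in KO and 24.1 kb in WT. The third, at 76346910 to 76383079, carried 21.8 kb in KO and 24.1 kb in WT, and had H3K27me3 in WT only. Of the remaining clusters, the one at chromosome 9, 134247753 to 134314856, carried 22.4 kb in KO and 26.5 kb in WT. The one at chromosome 3, 32841232 to 32886578, carried 19.1 kb in KO and 22.5 kb in WT. None of the 10 differed by 1.5-fold, and 9 of the 10 held between 1 and 3 FLAG peaks.

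**Figure D2:**
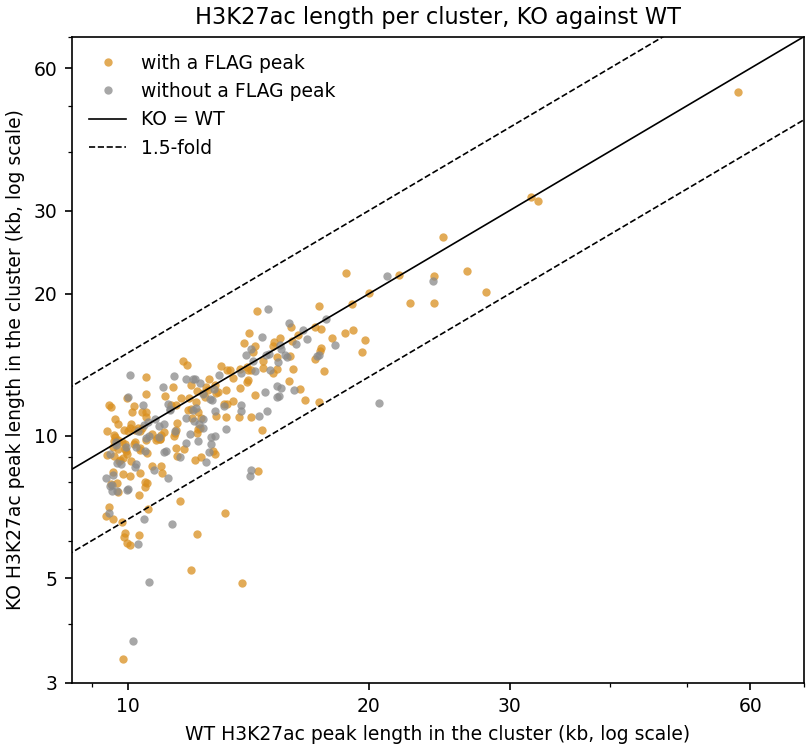
H3K27ac peak length in each of the 300 clusters in KO (y axis, kb, log scale) against WT (x axis, kb, log scale), for clusters with (orange) and without (grey) a FLAG peak. The solid line marks equal length and the dashed lines 1.5-fold, past which 21 clusters lie on the low side and none on the high side.

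The first question was how much of the H3K27ac in these clusters was present in KO cells. Every one of the 300 clusters held KO H3K27ac. KO peaks covered 3558 kb inside the clusters, against 3926 kb in WT, or 90.6%. The median cluster held 92.1% of its WT length (order-statistic interval 90.2 to 94.3), with a range from 34.2% to 134%. KO was shorter in 216 clusters, longer in 83 and equal in 1. KO length was under 1/1.5 of WT in 21 of 300 clusters (7%, 4.62 to 10.5), against 27.9% of all 14274 clusters. It was over 1.5 times WT in 0 of 300, which allows a share of up to 1.26%, against 0.049% of all clusters. KO peaks were clipped to the cluster, so a cluster of 1 peak, as 83.3% of all were, could not exceed 100% of WT. Such a cluster falls to 0 where its peak has no KO peak, and 3089 of all clusters stood at 0. The shares over all clusters are therefore no like measure for members. The share under 1/1.5 was 13.7% (10.2 to 18.02) in the next 300 clusters by rank, a difference of -6.67 points (members minus next 300, Newcombe interval -11.6 to -1.79). The medians differed by less than their intervals, at 92.1% in members and 93.2% (90.8 to 96.2) in the next 300.

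WT length chose these clusters, so the comparison was repeated from the KO side. The 300 largest clusters of the KO list held 3988 kb in KO and 3565 kb in WT, so WT reached 89.4% of KO there. Their median was 92.6% (90.1 to 94.3), and WT was under 1/1.5 of KO in 29 of them (9.67%), against 29.4% of all 14362 KO clusters. WT was over 1.5 times KO in 0 of the 300, against 0.0696% of all KO clusters, where a cluster of 1 peak could not exceed 100% either. When clusters were made from KO and WT peaks together and ranked by the mean of both lengths, the direction turned. KO then held 3997 kb and WT 3975 kb, a ratio of 101%, with a median of 99.5% (97.2 to 101.3). The direction of the total thus depended on which list chose the clusters.

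**Figure D3:**
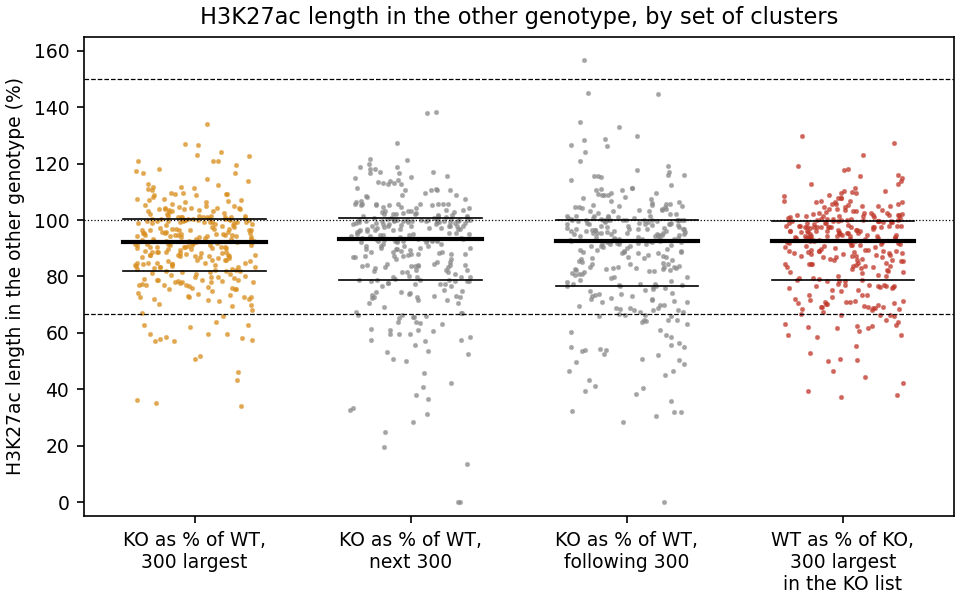
H3K27ac length in the other genotype as a percentage of the length in the genotype that chose the clusters (y axis), for 4 sets of 300 clusters, 1 point per cluster. Thick lines are medians, thin lines quartiles, dashed lines 1.5-fold, and the medians lie between 92.1% and 93.2% in all 4 sets, the set chosen in KO included.

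Both rankings named mostly the same places. Of the 300 WT clusters, 229 (76.3%, 71.2 to 80.8) overlapped 1 of the 300 largest KO clusters, and 226 of the 300 KO clusters (75.3%) overlapped a WT member. The 71 WT members outside the KO ranking were lower in rank, with a median rank of 228 against 122 for the shared ones. The median of the best KO rank among them was 481, and 46 of the 71 lay within the 600 largest KO clusters. Among clusters made from both lists, 5 had KO under 1/1.5 of WT and 8 had KO over 1.5 times WT. The 5 low clusters lay on chromosomes 9, 14, 4, 17 and 11. Of these, 4 held a FLAG peak, as did 63.0% (57.4 to 68.3) of all 300 clusters made from both lists. Of the 8 high clusters, 2 held a FLAG peak. The highest was at chromosome 21, 27442999 to 27490794, with 15.1 kb in KO and 6.78 kb in WT. The cluster at chromosome 17, 44176910 to 44228798, had 26.6 kb in KO and 17.01 kb in WT, and it holds a WT member. These clusters were picked out after their values were seen.

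Of the WT H3K27ac bases in members, 84.2% were also covered in KO, 15.8% (621 kb) were not, and KO peaks covered 253 kb of the members that no WT peak covered. WT peaks without any KO peak were mostly narrow ones beside the widest peak. The widest peak of a cluster had no KO peak in 2 of 300 clusters (0.667%, 0.183 to 2.40). The other 760 peaks had none in 168 cases (22.1%, 19.3 to 25.2). Median widths were 5646 bp for the widest peaks and 2394 bp for the others. The fall with width was not particular to members. Outside them, WT peaks on H3K4me3 had no KO peak in 33.8% of cases up to 2128.75 bp and 0.698% over 4541.75 bp. WT-only peaks, those with no KO peak, numbered 170 among the 1060 (16.0%, 14.0 to 18.4), against 18.2% in the next 300 clusters and 24.6% of all WT H3K27ac peaks. The difference from the next 300 was -2.19 points, with an interval that held 0 (-5.77 to 1.29). WT-only member peaks lay in 122 of the 300 clusters, had a median width of 1859 bp and a median score of 64.4, the authors' value for each peak. Member peaks with a KO peak had a median width of 3326.5 bp and a median score of 296.6. Member peaks were wider than other WT peaks, with medians of 2949 and 2052 bp. At widths over 2128.75 and up to 2949 bp they were WT-only more often than other WT peaks. On H3K4me3 it was 14.4% against 8.35% (6.01 points apart, 1.68 to 11.7), and off it 24.3% against 11.8% (12.5 points, 3.66 to 23.9). In the other width classes the intervals held 0. In the KO clusters no width class had an excess of KO-only peaks beyond its interval. Place in the cluster did not separate WT-only peaks from the others. In clusters of 3 or more peaks, 17.2% of the outermost peaks and 17.4% of the inner peaks were WT-only (difference -0.205 points, Newcombe interval -5.07 to 4.66).

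H3K4me3 was present in nearly all of these clusters in both genotypes. It lay in 292 of 300 clusters (97.3%, 94.8 to 98.6) in KO and in 292 in WT, and 290 had it in both. Over all clusters, most of which were single peaks, the shares were 72.2% in KO and 74.2% in WT. In the next 300 clusters they were 95% in KO and 94.3% in WT. Members thus stood close to the next 300, with a WT difference of 3 points (-0.269 to 6.48). Bases covered by H3K4me3 in the clusters totalled 3067 kb in KO and 3159 kb in WT, a ratio of 97.1%. The next 300 clusters had a ratio of 98.1%. Of the 1060 member peaks of H3K27ac, 805 (75.9%, 73.3 to 78.4) overlapped WT H3K4me3, against 74.2% in the next 300, and the difference was within its interval (1.70 points, -2.30 to 5.77). H3K4me3 covered 66.6% of WT H3K27ac bases in members, 66.1% in the next 300 and 67.7% over all clusters. A WT H3K4me3 peak with a score of 3100 or more lay in 222 of the 300 clusters, and the share over all clusters is not given here. The members were thus as much at H3K4me3, base for base, as other H3K27ac clusters.

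H3K27ac peaks off H3K4me3 were more often present in 1 genotype only than peaks on it, whichever list chose the clusters. KO-only peaks, those with no WT peak, were 24.8% of all KO H3K27ac peaks. In the 300 KO clusters, 109 of 321 peaks off H3K4me3 (34.0%) and 40 of 727 on it (5.50%) were KO-only, 28.5 points apart (23.1 to 34.0). In members, 92 of 255 peaks off H3K4me3 (36.1%, 30.4 to 42.1) were WT-only, against 78 of 805 (9.69%, 7.83 to 11.9) on it, 26.4 points apart (20.3 to 32.7). The same contrast over all WT H3K27ac peaks was 22.1 points. Of the 78 WT-only peaks on H3K4me3, 65 (83.3%, 73.5 to 89.99) overlapped an H3K4me3 peak in KO too, against 671 of 727 (92.3%) of those with a KO H3K27ac peak. The difference was -8.96 points (-18.9 to -1.96), so KO H3K4me3 was missing more often where KO H3K27ac was missing. The KO clusters showed the same for WT H3K4me3, present at 32 of 40 KO-only peaks (80%) and 660 of 687 others (96.1%), -16.1 points apart (-30.9 to -6.41). KO-only peaks in the members numbered 27, of which 4 lay on KO H3K4me3. Taking peaks at H3K4me3 of either genotype out before merging, as is usual for super-enhancers, left 5327 KO and 4554 WT peaks. In the 300 largest WT clusters of these distal peaks, KO held 78.4% of the WT length. In the 300 largest KO clusters of distal peaks, WT held 70.8% of the KO length. Distal clusters were short, with a median summed length of 4752 bp for KO and 4328.5 bp for WT, and the KO total over all 14274 WT clusters with H3K4me3 sites kept was 78.9%. Only 51 of those 300 WT distal clusters overlapped a member.

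The 8 clusters with no H3K4me3 peak in WT held no FLAG peak either. The largest of them, at chromosome 7, 70920163 to 70947007, carried 15.6 kb of H3K27ac in KO and 15.5 kb in WT. The next, at chromosome 11, 46004034 to 46034919, carried 16.2 kb in KO and 14.7 kb in WT. Both had 2 H3K4me3 peaks in KO only. The other 6 had no H3K4me3 in KO, and their KO length was 36.3% to 92.7% of WT. A pair of these, at chromosome 6, 57366366 to 57377188, and at chromosome 17, 44214903 to 44224902, were built of wide peaks with scores of at most 69.1 and 55.6, near the lowest score of 40 in the list. These 8 were picked out after their marks were seen.

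Most of the members with H3K27me3 also held a FLAG peak. H3K27me3 was found in 24 clusters (8%, 5.43 to 11.6) in KO and 32 (10.7%, 7.66 to 14.7) in WT, with 20 in common, 4 in KO only and 12 in WT only. Over all clusters the shares were 6.58% in KO and 8.81% in WT. It covered 83.2 kb in KO and 101 kb in WT. Of the 32 WT clusters with it, 30 (93.8%, 79.9 to 98.3) held a FLAG peak, against 158 of 268 (59.0%, 53.0 to 64.7) without it, 34.8 points apart (19.8 to 42.3). Clusters with it were longer, with a median span of 27.4 kb against 21.9 kb. The parts of span and of the number of H3K4me3 peaks in the FLAG difference were not tested. The same contrast is not given here for clusters outside the members, so it is not shown to be particular to members. The median KO H3K27ac percentage was 92.3% (83.2 to 101.04) in clusters with WT H3K27me3 and 91.96% (89.9 to 94.3) in those without.

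The cluster with the longest H3K27me3 was also the one with the most FLAG peaks. It lay at chromosome 10, 21784248 to 21824521, and held 18.1 kb of H3K27me3 in KO and 17.3 kb in WT. Its 6 FLAG peaks were spread along it, and the strongest, at 21804713 to 21807114 (score 414.03), lay in a gap between H3K27ac peaks. H3K27ac there was 13.7 kb in KO and 17.6 kb in WT, and the leftmost of its 4 WT peaks had no KO peak. The other clusters with the longest H3K27me3 were 2 on chromosome 19 and 2 on chromosome 17. At chromosome 19, 47728144 to 47761776, H3K27ac was 12.01 kb in KO and 11.6 kb in WT, and at 48893486 to 48929233 it was 10.2 kb in KO and 10.3 kb in WT. At chromosome 17, 7196645 to 7241223, it was 8.45 kb in KO and 14.5 kb in WT, with 4 FLAG peaks and H3K27me3 in both genotypes. Long H3K27me3 thus went with near-equal H3K27ac at both chromosome 19 clusters and with much shorter KO H3K27ac at both on chromosome 17.

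The lowest KO share of all members was at the second of these, at chromosome 17, 42616405 to 42635828. It carried 3.36 kb of H3K27ac in KO and 9.85 kb in WT (34.2%), and 3 of its 4 WT peaks had no KO peak. H3K27me3 was longer in KO there, 7.64 kb against 4.82 kb in WT, and 3 FLAG peaks lay in it. Similar loss without H3K27me3 in WT was seen at chromosome 9, 133971330 to 134001766, with 4.88 kb in KO and 13.9 kb in WT, and at chromosome 12, 56497036 to 56522868, with 5.19 kb in KO and 11.98 kb in WT. At the chromosome 12 cluster H3K4me3 was nearly the same, 12.1 kb in KO and 12.2 kb in WT, and the 2 lost peaks each held a FLAG peak. The other low clusters, at chromosome 6, 57366366 to 57377188 (36.3%), and chromosome 1, 145095501 to 145106100 (46.3%), held no FLAG peak and had no WT H3K27ac peak with a score above 101.

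The 5 clusters with the highest KO share lay on 4 chromosomes. At chromosome 6, 56615630 to 56643190, KO carried 13.5 kb and WT 10.1 kb (134%), with 5 peaks in KO and 3 in WT. The clusters at chromosome 1, 27319150 to 27340444, and chromosome 9, 133691717 to 133724267, both stood at 127%. Those at chromosome 6, 90376440 to 90406295, and chromosome 8, 98767757 to 98799587, stood at 124% and 123%. At the chromosome 6 cluster ending at 90406295, H3K4me3 was also longer in KO, 9.24 kb against 6.81 kb in WT. These clusters held 0 to 2 FLAG peaks.

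**Figure D4:**
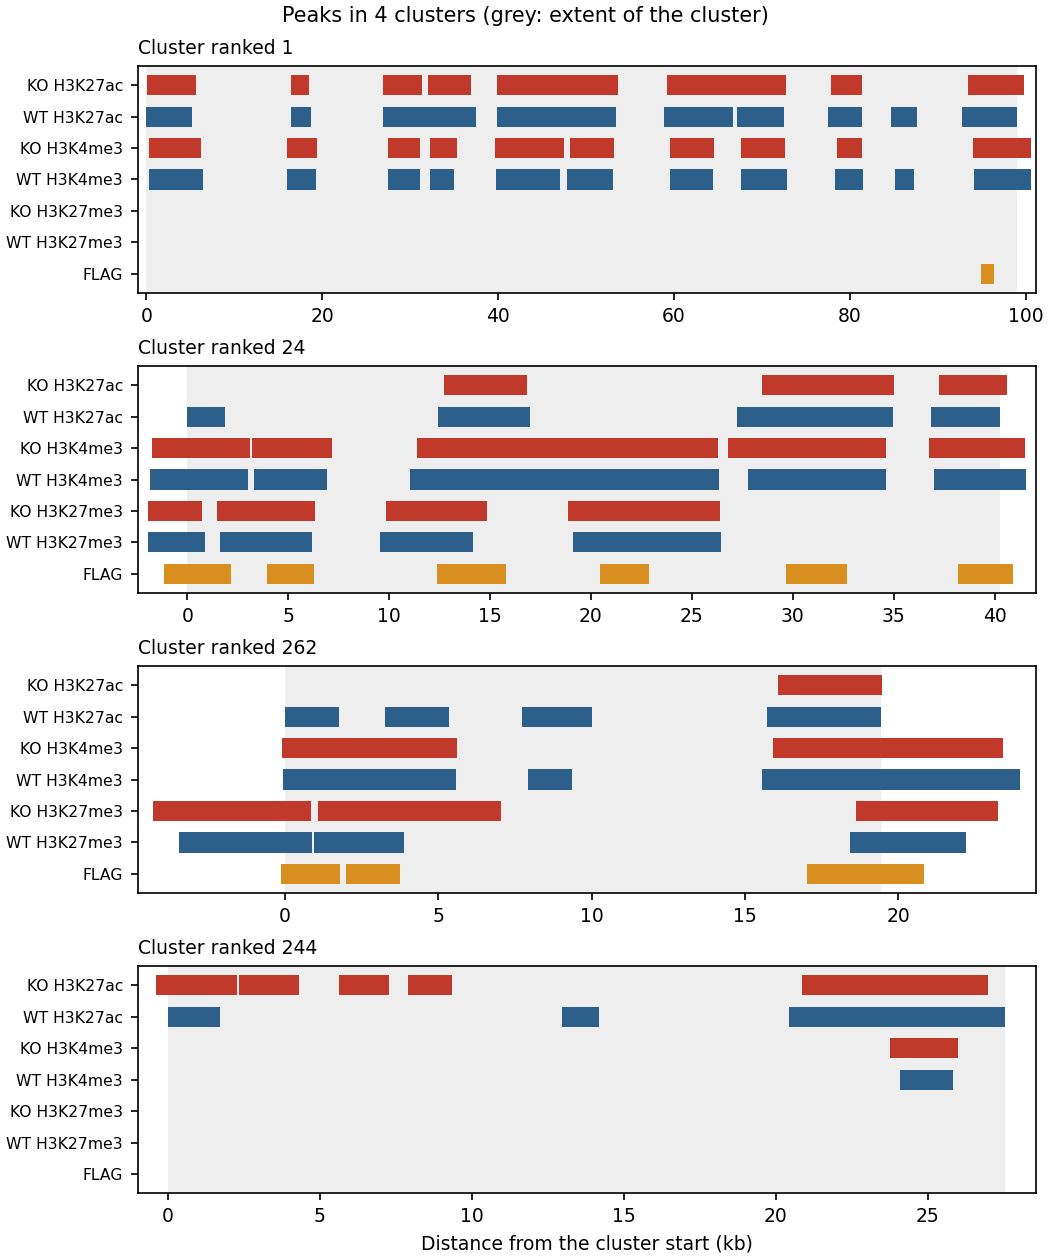
Peaks of each list in 4 named clusters (x axis, kb from the cluster start), KO in red, WT in blue and FLAG in orange, with the extent of the WT cluster in grey. The top panel is the largest cluster, the second the one with 6 FLAG peaks, the third the one with the lowest KO share (34.2%) and the bottom one that with the highest (134%).

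The next question was where ZNF263-FLAG lay in the clusters. FLAG peaks were in 188 of 300 clusters (62.7%, 57.1 to 67.95), against 30.7% of all 14274 clusters, most of which were 1 peak. Members held 333 FLAG peaks in all, or 1.45% of the 22966 FLAG peaks. A FLAG peak was absent from 112 clusters, 108 held 1, 35 held 2 and 45 held 3 or more. Their median score was 131, against 86.3 for FLAG peaks elsewhere and 126 for the 4439 FLAG peaks on WT H3K27ac elsewhere. FLAG peaks lay on the H3K4me3 parts of the clusters. Of the 333, 308 (92.5%) overlapped WT H3K4me3 and 306 (91.9%) overlapped WT H3K27ac, and 13 lay in a gap with neither. Among member peaks of H3K27ac, 300 of 805 on H3K4me3 (37.3%, 34.0 to 40.7) and 13 of 255 off it (5.10%, 3.003 to 8.53) held a FLAG peak. Over all WT H3K27ac peaks the shares were 37.0% on H3K4me3 and 2.75% off it. On and off it together they were 29.5% in members and 27.1% over all, so per peak the members stood near the whole list.

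FLAG peaks were more frequent in members than in the next 300 clusters, where 158 (52.7%, 47.0 to 58.2) held one. The difference, members minus next 300, was 10.0 points (2.09 to 17.7). In both sets the share was higher in clusters with 3 or more H3K4me3 peaks than in those with 1 or 2. Clusters with 3 WT H3K4me3 peaks held a FLAG peak in 66 of 87 members (75.9%) and in 41 of the 49 in the next 300 (83.7%). With 4 or more, the shares were 84.6% of 52 and 80.0% of 15, and with 2 they were 50% of 94 and 56.8% of 111. Members with 1 H3K4me3 peak had a share of 52.5% of 59, against 37.0% of 108. The clusters with 5 FLAG peaks spanned a range of KO shares. At chromosome 19, 49116843 to 49150410, H3K27ac was 17.02 kb in KO and 17.1 kb in WT, and at chromosome 17, 7460762 to 7495335, it was 13.8 kb in KO and 14.2 kb in WT. At chromosome 11, 118779517 to 118801122, it was 9.15 kb in KO and 12.9 kb in WT, and 2 of 4 WT peaks had no KO peak. At chromosome 2, 74666648 to 74710978, it was 10.1 kb in KO and 11.4 kb in WT. Many FLAG peaks thus went with equal as well as with shorter KO H3K27ac. Per H3K27ac peak, 29.5% of member peaks and 29.5% of peaks in the next 300 held a FLAG peak (0.0699 points apart, -4.21 to 4.29). Counted by peak midpoints, FLAG peaks had a density of 4.38 per 100 kb in members, 4.78 in the next 300, and 1.89 in flanks of equal span on each side of the members. H3K4me3 peaks had 10.1 per 100 kb in members and 2.13 in the flanks, a steeper fall than that of FLAG peaks.

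**Figure D5:**
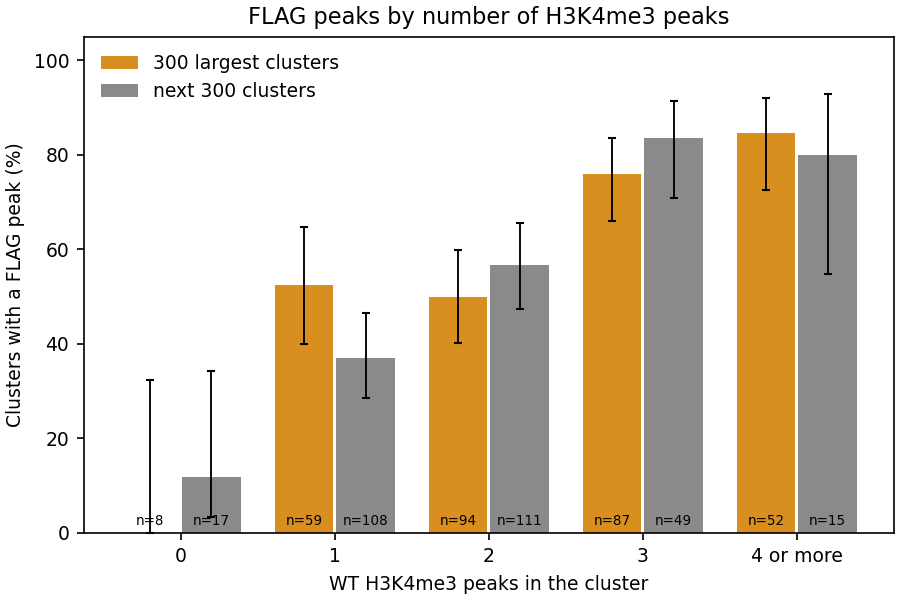
Share of clusters with a FLAG peak (y axis, percent, with Wilson 95% intervals) by number of WT H3K4me3 peaks in the cluster (x axis), for the 300 largest clusters (orange) and the next 300 (grey). Shares reach 84.6% and 80.0% with 4 or more H3K4me3 peaks and are 0% of 8 members and 11.8% of 17 in the next 300 with none.

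The comparison of KO H3K27ac by FLAG peaks was made first per cluster, where the intervals overlapped. KO held a median of 92.6% (90.5 to 95.4) of WT length in the 188 clusters with a FLAG peak and 89.9% (86.4 to 94.3) in the 112 without. KO was under 1/1.5 of WT in 6.91% of clusters with a FLAG peak and 7.14% of those without (-0.228 points apart, -7.15 to 5.50). Medians were 92.8% with 1 FLAG peak, 90.3% with 2 and 95.6% (84.4 to 100.04) with 3 or more, so the percentage had no steady order in the number of FLAG peaks. Clusters of 4 or more H3K27ac peaks had lower medians, in both lists. In KO clusters WT held a median of 94.5% (90.9 to 97.5) with 3 peaks, 88.95% (84.3 to 93.8) with 4 and 88.6% (79.3 to 93.5) with 5 or more. In members the KO median was 94.5% (92.2 to 96.7) in clusters of 3 peaks, 88.3% (82.7 to 91.6) in clusters of 4 and 87.3% (83.2 to 94.8) in those of 5 or more. Intervals overlapped except for 3 against 4 peaks in members.

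Per peak, the peaks missing in KO and those gained in KO differed in FLAG occupancy. The 300 largest KO clusters had 149 KO-only peaks among 1048 (14.2%), against the 24.8% of all KO peaks. KO-only peaks of the 300 largest KO clusters held a FLAG peak in 5 of 149 cases (3.36%, 1.44 to 7.61). WT-only peaks of the 300 largest WT clusters held one in 42 of 170 cases (24.7%, 18.8 to 31.7). The difference was -21.4 points (Newcombe interval -28.6 to -14.1), KO-only minus WT-only, with each list choosing its own clusters. With distal peaks only it was -2.46 points with an interval that held 0 (-6.98 to 0.231). Within the KO clusters, 5 of 40 WT-only peaks (12.5%, 5.46 to 26.1) held a FLAG peak. Over all clusters, 1002 of the 4310 WT-only peaks held one, and so did 30.4% (27.5 to 33.6) of member peaks with a KO peak. The FLAG share over all KO-only peaks is not given here. These peaks also differed in H3K4me3. It lay at 26.8% of the KO-only peaks of the KO clusters and 45.9% of the WT-only peaks of the WT clusters. On H3K4me3 of their own genotype, 4 of 40 KO-only peaks (10.0%) and 37 of 78 WT-only peaks (47.4%) held a FLAG peak, -37.4 points apart (-49.9 to -20.6). Off H3K4me3 it was 1 of 109 KO-only (0.917%) and 5 of 92 WT-only peaks (5.43%), and the interval held 0 (-4.52 points, -11.2 to 0.615). Median widths were 1561 bp for the KO-only and 1859 bp for the WT-only peaks, and median scores 57.3 and 64.4 in their own lists. The parts of H3K4me3, width and depth in the difference of -21.4 points were not tested.

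Counted from the FLAG side, 8 FLAG peaks of the 300 KO clusters lay on KO H3K27ac alone, 5 on WT H3K27ac alone and 255 on both. In the 300 WT clusters, 0 FLAG peaks lay on KO H3K27ac alone, 36 on WT H3K27ac alone and 270 on both. On H3K4me3, KO peaks of the KO clusters were KO-only in 4 of 250 cases (1.60%) with a FLAG peak and in 36 of 477 (7.55%) without, a difference of -5.95 points (-8.84 to -2.76). WT member peaks were WT-only in 37 of 300 cases (12.3%) with a FLAG peak and in 41 of 505 (8.12%) without, a difference of 4.21 points whose interval just held 0 (-0.0185 to 8.90). It was 3.31 points (1.89 to 4.75) over all WT peaks on H3K4me3 and -1.89 points (-7.20 to 3.92) in the next 300. In the 300 clusters after those, 18.3% of such peaks with and 7.95% without a FLAG peak were WT-only. Among members the difference lay above 0 on autosomes alone (4.53, 0.26 to 9.26), in the 200 largest clusters (5.43, 0.401 to 11.1) and after ranking by span (7.44, 2.45 to 12.8). It was -1.33 after ranking by score times length and -4.47 in the upper 50% of peaks by score, with intervals that held 0. Most H3K27ac peaks of members with a FLAG peak, 271 of 313, had a KO peak. On and off H3K4me3 together, 13.4% of member peaks with and 17.1% without a FLAG peak were WT-only. That difference was -3.72 points, with an interval that held 0 (-8.12 to 1.21). Over all WT peaks it was 21.1% with and 25.9% without a FLAG peak (-4.78 points, -6.15 to -3.38).

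By chromosome, the KO total in members again moved with the list that chose the clusters. On chromosome 17 KO held 84.1% of WT in the 19 members, 96.2% in the 17 clusters made from both lists and 115% in the 17 KO clusters. Chromosome 4 stood at 87.2% in its 12 members, 104% in 14 clusters of both lists and 113% in 15 KO clusters. Chromosome 20 was above 100% in each case, at 102% in 12 members, 116% in 12 clusters of both lists and 119% in 13 KO clusters. These are totals with no error and no test between chromosomes. FLAG peaks were present in 16 of 19 members of chromosome 17, 9 of 12 of chromosome 20 and 4 of 12 of chromosome 4.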

How the data were processed

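Chromatin of formaldehyde-fixed cells was sonicated and sequenced after ChIP, per the labels' protocols. Bowtie2, Picard and hg19 are named in the submitters' processing notes without versions. Nothing used here gives the peak caller's version, controls or pooling. The deposited lists give a position and a score per peak, with no read counts, so depth is unknown and numbers of peaks move with it. The scale of the score is not given either, and scores were used only within a list.

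Peaks were merged and overlapped (at least 1 bp) in python 3.11.15 with numpy 2.4.6 and pandas 2.3.3. KO peaks were clipped to cluster intervals. Functions were checked on simulated lists, with 0 errors in 730 clusters. Clusters named are the 10 largest, the 5 lowest and highest in KO share, the 5 with most FLAG peaks, the 5 with longest H3K27me3 and the rank limit. Members and comparisons were chosen with earlier results of these data known. Flanks, H3K4me3 number, distal KO clusters and comparisons repeated from the KO clusters were added after the data were seen. DNA sequence was not analysed here.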

Additional observations from a re-analysis of the deposited data

How the results depend on the processing

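With 1 library per arm, depth unknown and no replicates, the limits are those of peak calling: a weak peak can lie just under the threshold of a list. No paired analysis was possible because each arm held 1 library. Of 181 values from 15 results under 13 alternatives, 124 stayed close, 56 moved and 1 reversed. Close means inside the 95% interval of the value reported, for the KO total no farther off than the interval of the median reaches, and for FLAG density within 1.5 times. Single named clusters were recomputed only with KO peaks counted in full and with lists of equal length. All 60 values stayed within 1.5 times. Equal length cut the KO list only from 17571 to 17537 peaks and left these values unchanged, so that agreement says little. The other alternatives were not run on single clusters. The cause of the moves was not tested where the alternative's construction does not show it.

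With clusters from KO and WT peaks together, the KO total reversed to 101% of WT, since the WT list alone no longer chose the clusters. The median became 99.5% (99.8% with and 99.4% without FLAG), clusters under 1/1.5 1.67%, over 1.5 times 2.67%, and those with H3K4me3 98.7% in KO and 98.7% in WT. With distal peaks only, the KO total was 78.4%, the median 85.4% (97.6% with and 84.4% without FLAG), the share under 1/1.5 26.3%, clusters shared by both rankings 57.0%, with H3K4me3 5% in KO and 5% in WT, with H3K27me3 0.667% in KO and 0.333% in WT, with FLAG 6.33%, FLAG density 0.846 per 100 kb, and the KO-only minus WT-only difference in FLAG share -2.46 points. In the upper 50% by score, the KO total was 88.2%, the share under 1/1.5 13.7%, shared clusters 69.3%, with H3K4me3 74.0% in KO and 74.3% in WT, with H3K27me3 1% in KO and 2% in WT, with FLAG 48.0%, and the WT-only difference with minus without FLAG on H3K4me3 -4.47 points. Ranking by score times length gave a KO total of 93.3%, a median of 95.6% (96.97% with and 94.8% without FLAG), 2.33% under 1/1.5, 3% with H3K27me3 in KO and 4% in WT, 56.7% with FLAG, a WT-only difference of -1.33 points and a KO-only minus WT-only difference of -13.7 points. Ranking by span gave a KO total of 88.4%, a median of 89.6% (90.3% with FLAG), 14.0% under 1/1.5, 60.7% shared and 15.3% with WT H3K27me3. Merging at 5 kb gave 4% with H3K27me3 in KO, 5% in WT and 50% with FLAG. Merging at 25 kb gave 15.7% with H3K27me3 in KO, 20.7% in WT, 99.3% with H3K4me3 in KO, 99.0% in WT and 76.0% with FLAG. The 200 largest clusters had H3K4me3 in 100% in KO and 99.0% in WT. KO peaks counted in full gave a KO total of 92.99%. The ranking shared with KO and the exclusive peaks of each list have no value for the union, and the WT-only difference on H3K4me3 none for distal peaks.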
